A study of Saccharomyces cerevisiae with 3 samples.

Results

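The gcn5 deletion strain was compared with wild type at every protein-coding nuclear gene of budding yeast, 5998 of the 6477 genes of all kinds in the RefSeq R64 table, which is the sequence of the sacCer3 build. A gene entered when it had a systematic name that gives its strand and a full 500 bp between its start codon and the chromosome end. In DNase-seq, nuclei are cut with DNase I and the cut ends are sequenced; a hypersensitive site is a stretch where cuts pile up. The comparison rests on 1 list of sites per strain, with 3061 nuclear sites in the gcn5 deletion and 3259 in wild type, out of 8761 sites in the 3 lists of the series. The remaining list comes from an sba1-/- strain and is quoted only beside single genes. The tested strain is gcn5-/-, an isolate of the parent BY4741 (MATa) obtained from Open BioSystems, and its control is the parent labelled wild type. Both were grown in rich medium with 2% glucose at 30 °C, to the same optical density. Each strain had 1 library, so differences lack a replicate check, all counts describe these 2 lists, and no p-value is given. Read depth is unknown, so a missing site is a site that was not listed, not closed chromatin.

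The GCN5 product is a histone acetyltransferase that works within SAGA and ADA, coactivator complexes that sequence-specific activators such as Gcn4 bring to promoters. Acetylation of histone tails there is bound by bromodomain proteins, among them subunits of the SWI/SNF and RSC remodelling complexes, which move or evict nucleosomes. In yeast the stretch just upstream of most active genes is depleted of nucleosomes, and DNase I cuts there most readily.

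Each gene was described by the share of its promoter window, the 500 bp upstream of the start codon, and of its coding span, start to stop codon with introns, that lay under listed sites. A promoter site was called lost or gained where the window touched a site in one list and none in the other. Coverage was called higher or lower where it differed by at least 20 percentage points, gcn5 deletion minus wild type. A window can hold part of a neighbouring gene, and divergent genes can share a site, so gene counts exceed the number of sites behind them.

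The deleted gene, GCN5 (YGR252W), lies on chromosome VII from 996869 to 998188. Its coding span was covered at 0% in both the gcn5 deletion and wild type, so the coding span does not check the label. Its promoter window was covered at 68.4% in the gcn5 deletion and at 0% in each of the other lists. The deletion alters this locus itself, and whether that site stems from the altered sequence was not tested, so its value is not read as a promoter gain. BY4741 is known to lack LEU2, URA3 and MET17, and none of these genes had any promoter or coding coverage in the gcn5 deletion, wild type or the sba1 deletion. HIS3, which BY4741 carries in part, had 21.4% of its coding span covered in the gcn5 deletion and 18% in wild type.

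Promoter sites were turned over in both directions. Among the 5998 genes, 2636 had a promoter site in the gcn5 deletion and 2594 in wild type, and 2231 had one in both. In the gcn5 deletion 363 genes had lost the site, 6.05% of all genes tested, and 405 had gained one, 6.75% of all genes tested. The losses were 14% (exact binomial 95% interval 12.7 to 15.4) of genes with a wild-type site, and the gains were 11.9% (10.8 to 13.0) of genes without one. These intervals cover counting over genes only. The 363 lost windows went back to 299 wild-type sites, and the 405 gained windows to 346 gcn5 deletion sites. Of the lost genes, 39 still had a gcn5 deletion site on the wild-type site, lying outside the window, and 57 of the gained genes had a wild-type site placed in the same way.

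Lost and gained sites were mostly narrow and low in their own list. The median gained site was 175 bp wide and scored at the 26.3 percentile of the gcn5 deletion list, where the score is the authors' own value with no stated scale. The median lost site was 160 bp wide and scored at the 25.8 percentile of the wild-type list. Genes with a site in both lists had sites with median widths of 357 bp in the gcn5 deletion and 328 bp in wild type. When genes with a wild-type promoter site were put in 5 classes by its score, 209 of 519 lost it in the lowest class, 113 of 519 in the next, then 23 of 518, 13 of 520 and, in the highest class, 5 of 518. The share lost was 40.3% in the lowest class and 0.965% in the highest. Sites centred in coding sequence made up 21.1% of those gained and 22.7% of those lost. Shares were similar at genes with a site in both lists, 19.0% in the gcn5 deletion and 21.2% in wild type.

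In terms of coverage the balance was towards more open promoter windows in the gcn5 deletion. Coverage was higher by at least 20 points at 598 genes, 9.97% of those tested, and lower at 361, 6.02%. Mean coverage over all genes was 24.7% in the gcn5 deletion and 22.9% in wild type. Among the 598, 261 were gained sites and 337 had a site in both lists; among the 361, 213 were lost sites and 148 had a site in both. The imbalance grew with the size of the change: 148 genes were higher and 51 lower by at least 50 points. It was gone when all sites were given a width of 250 bp about their midpoints, with 453 promoters higher and 450 lower. Windows covered completely numbered 437 in the gcn5 deletion and 350 in wild type.

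**Figure D1:**
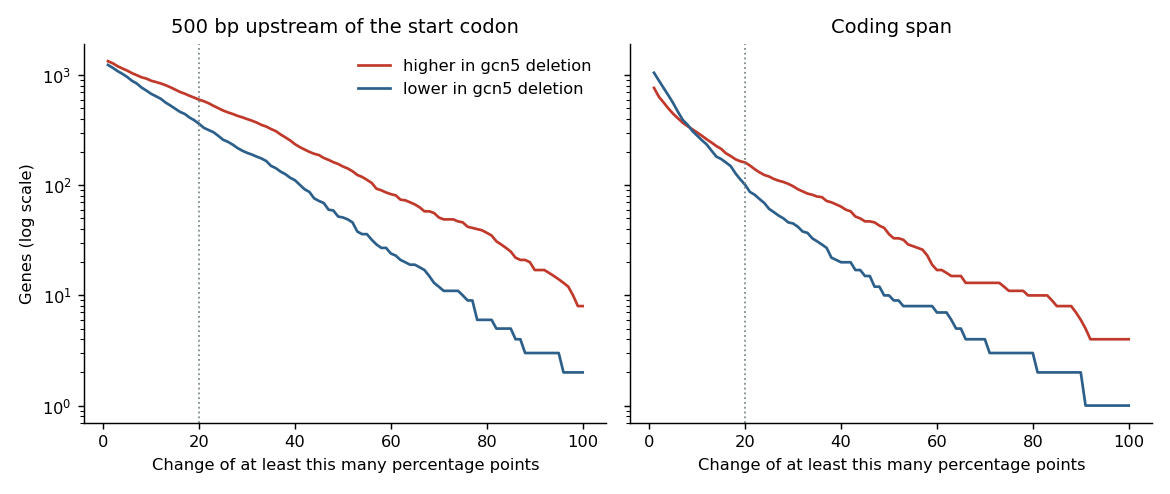
Number of genes (y axis, log scale) whose coverage by sites differed between the gcn5 deletion and wild type by at least the percentage points on the x axis, for the 500 bp promoter window (left) and the coding span (right); red, higher in the gcn5 deletion, blue, lower. At the dotted line of 20 points, 598 promoters were higher and 361 lower, and 161 coding spans were higher and 101 lower, while at 8 points or below more coding spans were lower than higher.

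The extra coverage lay upstream of genes and not at their starts. The share of genes under a site was highest 170 bp upstream of the start codon in the gcn5 deletion, at 28.9%, and 150 bp upstream in wild type, at 26.8%. The difference was largest 350 bp upstream, 2.72 points, and it was negative from 30 bp upstream to 110 bp downstream, with its lowest value of -1.06 points 30 bp inside the coding sequence. Around the stop codon the difference stayed between -0.695 and 0.849 points. Of 1991 genes with a single overlapping site in the window in each list, the edge towards the gene reached less far in the gcn5 deletion at 1089 and further at 884, with a median shift of -5 bp. Among the 850 of them with a tandem upstream neighbour, it reached less far at 498 and further at 341, with a median of -9 bp. Shifts of this edge by at least 50 bp were about as many in either direction among the 1991, 362 further and 343 less far. The edge away from the gene reached further at 986 and less far at 989, with a median shift of 0 bp, and moved by at least 50 bp outward at 454 and inward at 309.

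**Figure D2:**
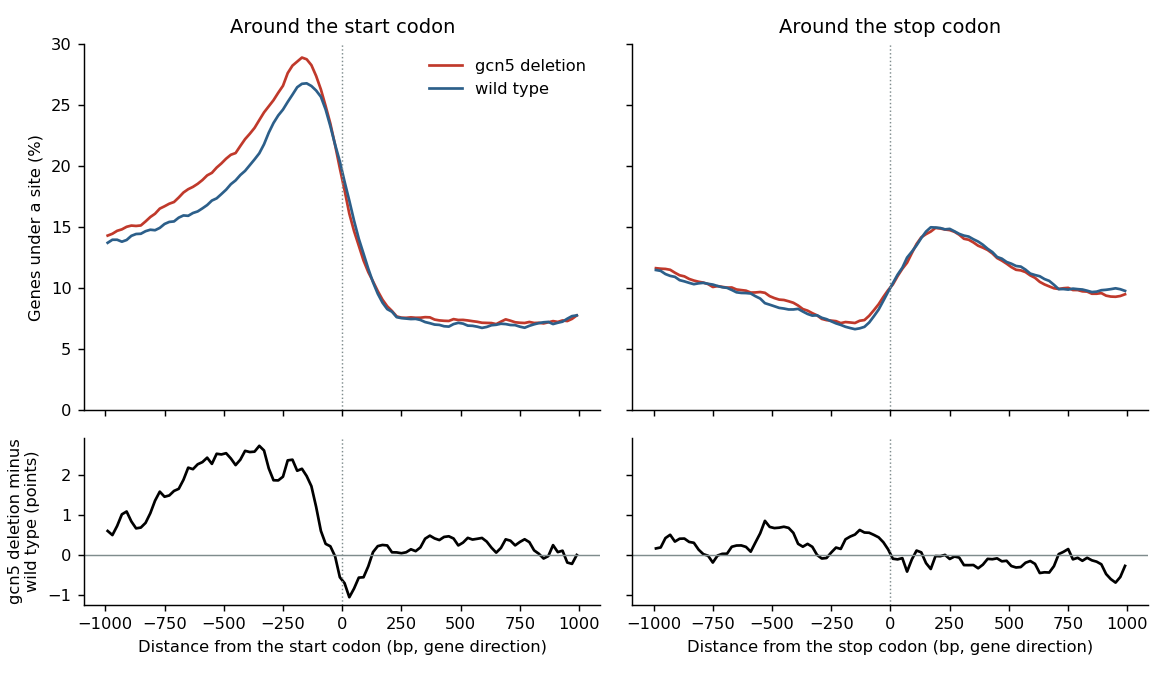
Share of 5998 genes with a site over each position (top, percent) in the gcn5 deletion (red) and wild type (blue), and gcn5 deletion minus wild type (bottom, percentage points), by distance in 20 bp bins from the start codon (left) and the stop codon (right) in gene direction. The gcn5 deletion curve runs above wild type upstream of the start codon, by up to 2.72 points at 350 bp, and below it just inside the coding sequence.

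Joining of neighbouring sites was more frequent in the gcn5 deletion. There, 129 sites each covered 2 or more wild-type sites, with 906 bp as their median width and 168 bp as the median gap bridged, while 52 wild-type sites covered 2 or more gcn5 deletion sites. Wild type also had more sites that could be joined, 3259 against 3061. The gcn5 deletion's joined sites touched 215 promoter windows, and 103 of these had higher coverage by at least 20 points. The wild-type joined sites touched 60, and 18 of these had lower coverage in the gcn5 deletion by at least 20 points. A joined site covers the gap between sites of the other list, so such differences are largely built into its definition. Sites that matched one to one were not wider as a rule: of 2267 such pairs 1010 were wider in the gcn5 deletion and 1249 narrower, with a median width ratio of 0.973 and quartiles of 0.796 and 1.19. The ratio was 1.11 for the 922 pairs under 250 bp in wild type and 0.933 for the 1156 pairs from 250 bp to under 1000 bp, a comparison in which the grouping by wild-type width itself moves the ratio.

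The genes with the largest gains of a promoter site in the gcn5 deletion had windows covered at 97.8% to 100%, against 0% in wild type. PYK2, a pyruvate kinase isoform little used on glucose, had a site of 3535 bp at chromosome XV 986421 to 989955 in the gcn5 deletion, and the overlapping wild-type site ended at position -580 from the start codon. NCP1, the NADPH reductase of cytochrome P450 enzymes, was covered by a site of 2116 bp at chromosome VIII 188869 to 190984 whose score ranked at the 96.4 percentile of the gcn5 deletion list, and which overlapped a narrower wild-type site outside the NCP1 window. SKS1, a protein kinase acting at low glucose, RTS3 and the mannoprotein gene HPF1 were also at 100% in the gcn5 deletion and 0% in wild type. So were PHO8, the vacuolar alkaline phosphatase, the decapping activator gene EDC2 and the isomaltase gene IMA1. AAT2, an aspartate aminotransferase, stood at 98.6% in the gcn5 deletion and 0% in wild type, and CDC6, which loads the replicative helicase at origins, at 97.8% and 0%. In the sba1 deletion these windows were covered at 82% to 100%, except that of IMA1 at 0%.

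The PHO8 site, at chromosome IV 1420178 to 1421055, also covered the whole of its upstream neighbour CWC21, a splicing factor gene whose coding span was at 100% in the gcn5 deletion and 0% in wild type. The same site reached into the promoter window of KRE2, the divergent neighbour of CWC21, so these gains are 1 site. No wild-type site lay within 1500 bp of the PHO8 start codon.

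The largest losses of a promoter site left windows that were covered at 68.6% to 100% in wild type with none in the gcn5 deletion. IDP3, the peroxisomal isocitrate dehydrogenase, was covered at 0% in the gcn5 deletion and at 100% in wild type, by a site of 664 bp at chromosome XIV 614279 to 614942. CHD1, a chromatin remodeller that spaces nucleosomes, was at 0% in the gcn5 deletion and 87.4% in wild type, its wild-type site running along chromosome V between 504881 and 505328. CCM1, needed for mitochondrial ribosomal RNA, was at 0% against 81.8%. FMP10 was at 0% in the gcn5 deletion and 77.8% in wild type, where its site was 1086 bp wide. The divergent pair HRB1, an mRNA-binding protein gene, and MRP7, a mitochondrial ribosomal protein gene, lost sites in their shared intergenic stretch and stood at 0% in the gcn5 deletion and 77% in wild type. TGL1, a steryl ester hydrolase, USB1, which trims a spliceosomal RNA, BMS1, a GTPase of small ribosomal subunit assembly, and SEC18, the ATPase that recycles membrane fusion proteins, were at 0% in the gcn5 deletion and between 68.6% and 74% in wild type. Apart from CHD1 at 11.2% and USB1 at 65%, these windows were at 0% in the sba1 deletion as well.

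Where both lists held a promoter site, coverage still differed widely at some genes. HMX1, heme oxygenase, was covered at 100% in the gcn5 deletion and 1.40% in wild type. PMA1, the plasma membrane proton pump, was at 100% in the gcn5 deletion and 2.80% in wild type, where a site that ended at position -487 from the start codon in wild type reached past that codon in the gcn5 deletion. SGA1, a glucoamylase of sporulating cells, was at 100% against 14.6%, ATG27, a membrane protein of autophagy, at 95% against 9.80%, PPN1, a polyphosphatase, at 91.6% against 16%, and SPL2, a gene of the phosphate response, at 85% against 9.40%. APT2, BRP1, EFM1 and UBX6 completed the highest 10, with 87.4% to 100% in the gcn5 deletion and 7.80% to 24.4% in wild type. BRP1 lies just upstream of PMA1 and was covered by the same site.

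In the other direction, NOT5, a subunit of the CCR4-NOT deadenylase complex, was covered at 24.4% in the gcn5 deletion and 100% in wild type. Calmodulin, encoded by CMD1, stood at 10.2% in the gcn5 deletion and 77.4% in wild type, and its divergent partner ALG1, a mannosyltransferase, at 10.2% and 76.2%. The window between them held a single gcn5 deletion site of 51 bp, where wild type had sites of 180 and 207 bp. The splicing factor gene CLF1 was at 4.40% in the gcn5 deletion and 63.8% in wild type, MND2, of the anaphase-promoting complex, at 0.600% and 55.8%, and NDJ1, of meiotic telomeres, at 14% and 75%. HSK3, APL4, YCP4 and the kinase gene CLA4 also belonged to the lowest 10, at 17.2% to 39% in the gcn5 deletion and 72.8% to 96.6% in wild type. HSK3, YCP4 and CLA4 turned to higher when every site was set to 250 bp.

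**Figure D3:**
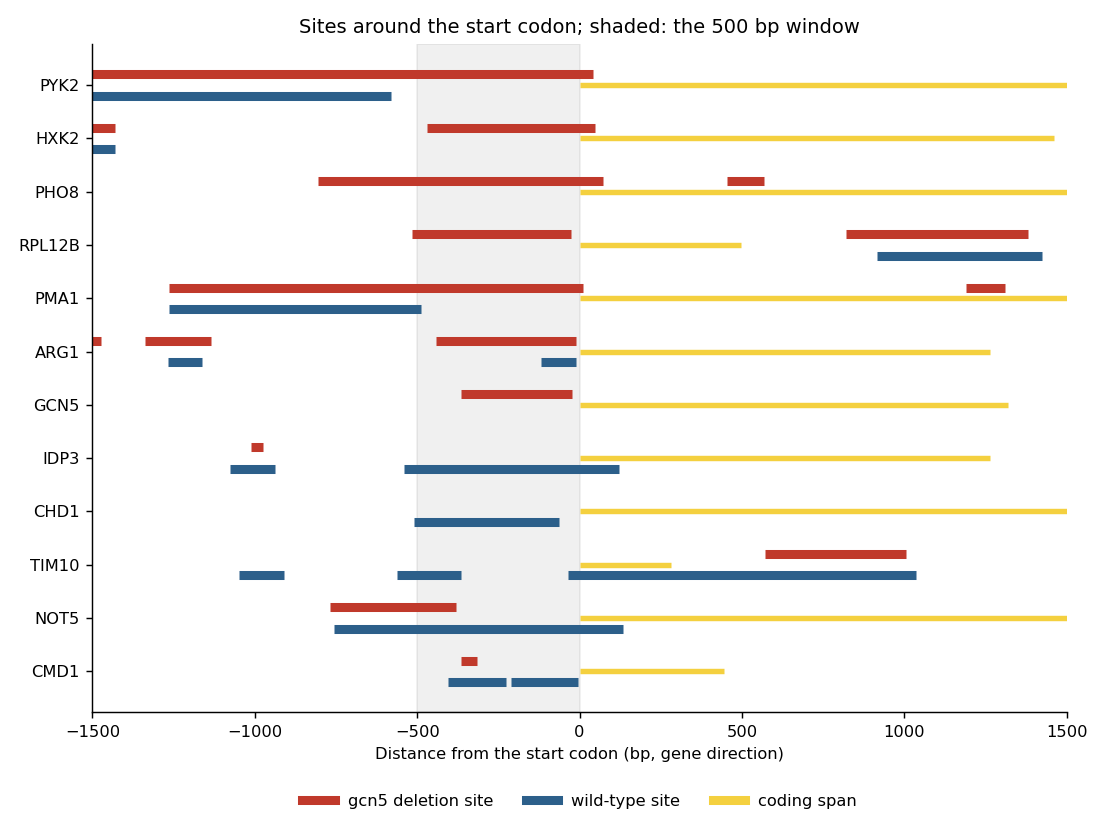
Sites around the start codon of 12 genes (x axis, distance in bp in gene direction, drawn to 1500 bp either way); red bars, gcn5 deletion sites, blue bars just below them, wild-type sites, yellow, coding span, shaded, the 500 bp promoter window. PYK2, HXK2, PHO8, RPL12B, PMA1, ARG1 and GCN5, the altered locus, had more of the shaded window covered in the gcn5 deletion, and IDP3, CHD1, TIM10, NOT5 and CMD1 had less.

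Genes named in textbooks as dependent on Gcn5 or SAGA did not lose promoter sites. Of 13 such genes, 9 had a promoter site in the gcn5 deletion and 8 in wild type, none lost it and PHO8 gained one. Over all genes 14% of those with a wild-type site lost it, so few losses could be seen among 8. Coverage was higher by at least 20 points at 3, 23.1% of the list against 9.97% of all genes, and lower at 0, with a median difference of 0 points in the list and over all genes. The 3 were PHO8, ARG1 and INO1. ARG1, argininosuccinate synthetase and a Gcn4 target, was at 86% in the gcn5 deletion and 22% in wild type. INO1, inositol phosphate synthase, was at 88.4% and 66.8%. The sba1 deletion was higher than wild type at these 3 windows too, with PHO8 at 100%, ARG1 at 80.8% and INO1 at 100%. With every site set to 250 bp INO1 turned to lower. GAL1 and GAL10 share a divergent promoter that glucose represses, and its window was covered at 100% in both strains, while GAL7 was at 41.8% in the gcn5 deletion and 33.6% in wild type. HIS4 stood at 41% in the gcn5 deletion and 43.8% in wild type, HIS3 at 23% and 21%, and HO, the mating-type endonuclease, at 6.60% and 2.00%. PHO5, SUC2 and ARG4 had no promoter or coding site in either strain. PHO84, the phosphate transporter, had no promoter site in either, and 14.2% of its coding span was covered in the gcn5 deletion against 27.2% in wild type.

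Few genes of Gcn5's own complexes differed in promoter coverage. Of 21 SAGA and ADA genes, 7 had a promoter site in the gcn5 deletion and 7 in wild type. Coverage was higher at 2, 9.52% against 9.97% of all genes, and lower at 1, 4.76% against 6.02%. The 2 were SGF29 and GCN5 itself, whose locus the deletion alters. The GCN5 value is not read as a promoter gain, so outside that locus SGF29 alone was higher. SGF29, a subunit of the acetylation module that reads methylated histone tails, was at 88.2% in the gcn5 deletion and 28% in wild type. HFI1, a structural subunit of SAGA, lost its site and stood at 0% in the gcn5 deletion and 35.4% in wild type. SPT7, the scaffold that holds SAGA together, was at 100% in both. Among 26 genes of other acetyltransferase complexes 2 were higher and 2 lower, 7.69% each. YNG1 was at 45.4% in the gcn5 deletion and 0% in wild type and EAF6 at 0% and 36.8%. SAS2, a histone acetyltransferase gene, had 0% of its coding span covered in the gcn5 deletion and 52.2% in wild type. Deacetylase complexes had 4 of 31 higher, 12.9%, and 2 lower, 6.45%. HST1 was at 100% in the gcn5 deletion and 40.4% in wild type, and PHO23 at 0% and 41.6%. The sba1 deletion had HST1 at 100% and PHO23 at 0%.

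Genes of chromatin remodelling complexes had 7 of 52 promoters lower, 13.5% against 6.02% of all genes, and 5 higher, 9.62% against 9.97%. Sites were lost at 5 of the 25 with a wild-type site, against 14% of all genes with one, and gained at 2, against 6.75% of all genes. The counts were 5 lower and 5 higher with a 250 bp window, 5 and 0 with 1000 bp, 6 and 3 with 250 bp sites and 4 and 3 with the better-scored 50% of sites. After CHD1, ARP5 of the INO80 complex was at 42.6% in the gcn5 deletion and 91.2% in wild type, SWI1 of SWI/SNF at 59% and 99.8%, and IES3, of INO80, at 0% and 41.8%. RVB2, an ATPase shared by INO80 and SWR1, was on the other side at 84.4% in the gcn5 deletion and 40.6% in wild type. Of 11 histone genes, 2 were higher, those of the divergent pair HHT2 and HHF2, which encode histones of the core particle. HHF2 stood at 97.6% in the gcn5 deletion and 27.4% in wild type and HHT2 at 100% and 34.2%, while the second copies HHT1 and HHF1 had no site in either strain. Mediator and general transcription factor genes were near the background, with 5 of 53 higher and 2 lower.

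Cytosolic ribosomal protein genes were the longest list that stood away from the background. Of 137, 38 had higher promoter coverage in the gcn5 deletion, 27.7% against 9.97% of all genes, and 2 had lower, 1.46% against 6.02%. Mean promoter coverage was 53.1% in the gcn5 deletion and 40.4% in wild type, and the median difference was 0.800 points, against 0 over all genes. Promoter sites were gained at 16 and lost at 4, where 6.75% of all genes gained one and 6.05% lost one. RPL12B had the largest change, 95% in the gcn5 deletion and 0% in wild type, and it was at 100% in the sba1 deletion. RPL42A was at 100% in the gcn5 deletion and 33.2% in wild type, RPP2A, of the ribosomal stalk, at 100% and 35.8%, and RPS15 at 100% and 40.0%. RPS27A, at 0% in the gcn5 deletion and 29.8% in wild type, and RPS31, at 44.2% and 64.6%, were the 2 lower genes. Coding spans of this list went the other way: 0 were higher by 20 points, against 2.68% of all genes, and 9 were lower, 6.57% against 1.68%, and mean coding coverage was 15.4% in the gcn5 deletion and 16.8% in wild type. Large coding changes were more frequent in short genes, with 85 higher and 59 lower among the 1500 shortest, and this background was not matched for length. No alternative setting was run on the coding counts of this list. RPS25B, at 0% in the gcn5 deletion and 46.8% in wild type, had the largest coding loss. With every site set to 250 bp the promoter counts were 21 higher and 8 lower, and with the better-scored 50% of sites 29 and 6. Many ribosomal protein genes exist as near-identical pairs, and the sources used here do not say how reads that match both copies were placed.

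**Figure D4:**
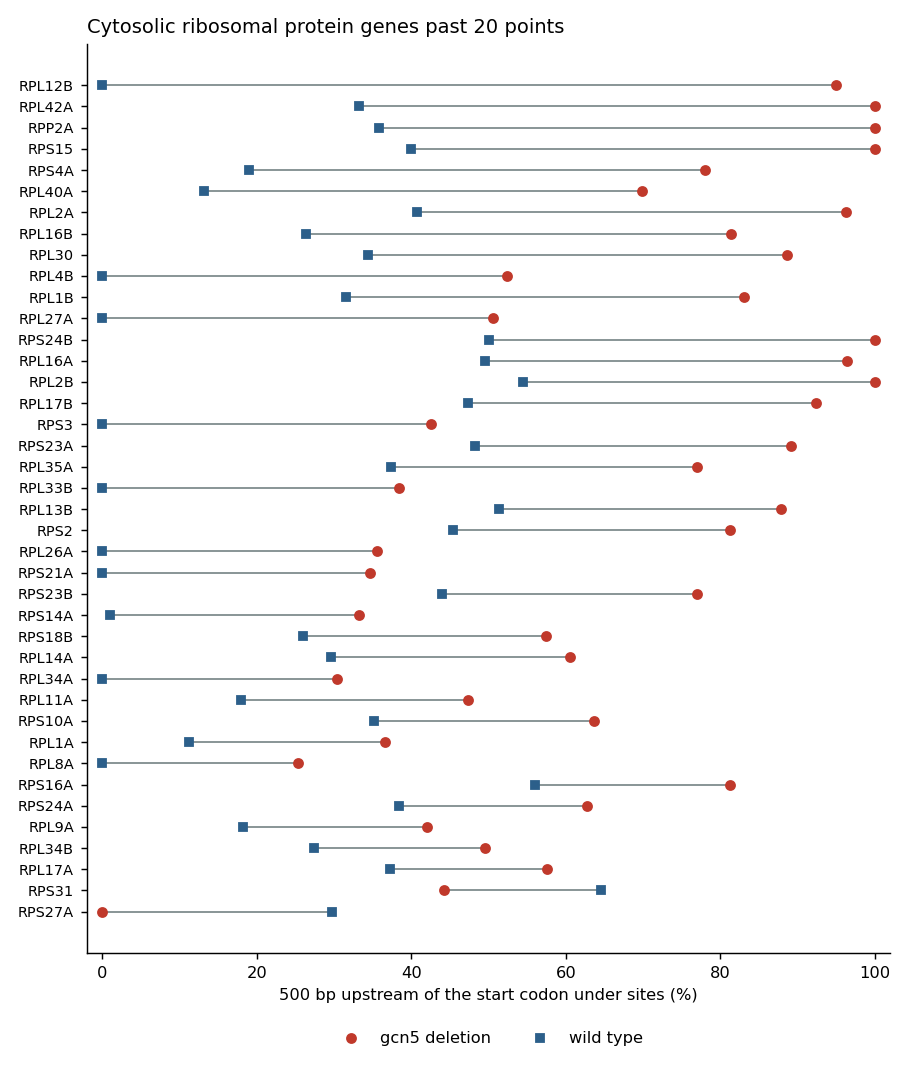
Share of the 500 bp promoter window under sites (x axis, percent) in the gcn5 deletion (red circles) and wild type (blue squares) for the cytosolic ribosomal protein genes that differed by at least 20 points, ordered by the difference. The gcn5 deletion lies to the right at 38 genes, from RPL17A at 57.6% against 37.2% to RPL12B at 95% against 0%, and to the left at RPS31 and RPS27A.

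Genes that assemble ribosomes did not share this pattern of counts. Of 109 ribosome biogenesis genes 5 were higher and 5 lower, 4.59% each. A promoter site was missing from both lists at 58 of the 109. UTP15 was at 84.8% in the gcn5 deletion and 0% in wild type, and BMS1 was lost. UTP15 and BMS1 were both at 0% in the sba1 deletion. Of 71 mitochondrial ribosomal protein genes 3 were higher and 3 lower. Translation factors and aminoacyl-tRNA synthetases had 6 of 55 higher and 0 lower, with the phenylalanyl-tRNA synthetase gene FRS2 at 79.2% in the gcn5 deletion and 9.80% in wild type. No difference between these lists and the ribosomal protein list was tested.

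Glycolysis and fermentation genes gained promoter sites and lost none. Of 26, 22 had a promoter site in the gcn5 deletion and 15 in wild type, a gain at 7, where 6.75% of all genes gained one. HXK2, PYK2 and GCR2 gained at least 20 points. The other gains were smaller, CDC19 at 0.6%, ADH4 at 7.8%, PFK1 at 13% and HXK1 at 16% of the window in the gcn5 deletion. Coverage was higher at 8, 30.8% against 9.97% of all genes, and lower at 1, and the median difference was 8.70 points against 0. HXK2, the main hexokinase on glucose, was at 94% in the gcn5 deletion and 0% in wild type, ENO2, an enolase, at 79.8% and 25%, ADH3, the mitochondrial alcohol dehydrogenase, at 100% and 33.6%, and PDC1, the main pyruvate decarboxylase, at 54.2% and 14.2%. GCR1, the activator of glycolytic genes, was the lower one, at 39.2% in the gcn5 deletion and 87.2% in wild type, and it turned to higher with every site at 250 bp. Coding coverage averaged 15.5% in the gcn5 deletion and 10.6% in wild type. CDC19, the main pyruvate kinase, was covered at 49.4% in the gcn5 deletion and 6.99% in wild type, and ADH1, the main alcohol dehydrogenase, at 51.3% and 16%. With 250 bp sites 8 of 26 promoters were higher and 0 lower, and with the better-scored 50% of sites 5 were higher and 2 lower.

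Other metabolic lists leaned the same way. Amino acid biosynthesis genes had 15 of 63 promoters higher, 23.8%, and 2 lower, 3.17%. Their promoter sites were gained at 8 and lost at 1, where 6.75% of all genes gained one and 6.05% lost one. LYS4, of lysine synthesis, was at 92.8% in the gcn5 deletion and 26% in wild type, HIS5 at 95% and 42.8%, and LEU1 at 74% and 25.2%. TRP5 was lower, at 52.4% in the gcn5 deletion and 77% in wild type. The median difference was 0 points in this list, as over all genes. Sterol and lipid genes had 12 of 48 higher, 25%, and 1 lower. The fatty acid elongase gene ELO1 was at 86.8% in the gcn5 deletion and 0% in wild type, a site shared with the divergent gene CDC6. HMG1, the rate-limiting reductase of sterol synthesis, was at 61.4% and 0%, IDI1 at 100% and 38.2%, and CKI1, choline kinase, on the lost side at 0% in the gcn5 deletion and 63.2% in wild type. CKI1 and its divergent neighbour USB1 lost the same wild-type site. Cell wall genes had 12 of 58 higher, 20.7%, and 3 lower. KRE2, a mannosyltransferase, was at 79.8% in the gcn5 deletion and 0% in wild type, the cell wall protein gene DAN4 at 89.2% and 0%, and KRE5, needed for glucan synthesis, at 0% and 27.4%. The KRE2 window held the same gcn5 deletion site as the PHO8 window and CWC21. The counts of these 3 lists depended on the processing. Under a fixed site width of 250 bp they were 9 higher and 1 lower for amino acid genes, 6 and 3 for sterol and lipid genes, and 7 and 3 for cell wall genes. With the better-scored 50% of sites they were 11 and 4, 8 and 0, and 7 and 1. With 1000 bp windows 8 amino acid genes were higher and 0 lower.

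Lists of stress, nutrient and carbon source genes are read against the same 9.97% and 6.02% of all genes. General stress genes had 8 of 38 higher, 21.1%, and 3 lower, 7.89%. PGM2, a phosphoglucomutase, was at 84% in the gcn5 deletion and 26.4% in wild type, and ALD3, an aldehyde dehydrogenase, at 0% and 68.4%. The list of glucose-repressed and gluconeogenic genes had 5 of 26 higher, 19.2%, and 0 lower, with ACS1, an acetyl-CoA synthetase, at 88.2% in the gcn5 deletion and 18.4% in wild type. Phosphate genes had 4 of 26 higher, 15.4%, and 1 lower, 3.85%; PHO89, a phosphate transporter, was at 63.6% in the gcn5 deletion and 0% in wild type, and VTC4, of polyphosphate synthesis, at 14.8% and 52%. Hexose transporters and sensors gained sites at 4 of 24 genes, against 6.75% of all genes, and lost none. Of these 24, 2 were higher, 8.33%, with HXT3 at 29.2% in the gcn5 deletion and 0% in wild type. The galactose list had 2 of 9 higher, 22.2%, and 0 lower. Methionine and sulfur genes had 5 of 31 higher, 16.1%, and 3 lower, 9.68%, with SAM3 at 66.6% in the gcn5 deletion and 17.4% in wild type and the regulator gene MET32 at 0% and 59%.

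**Figure D5:**
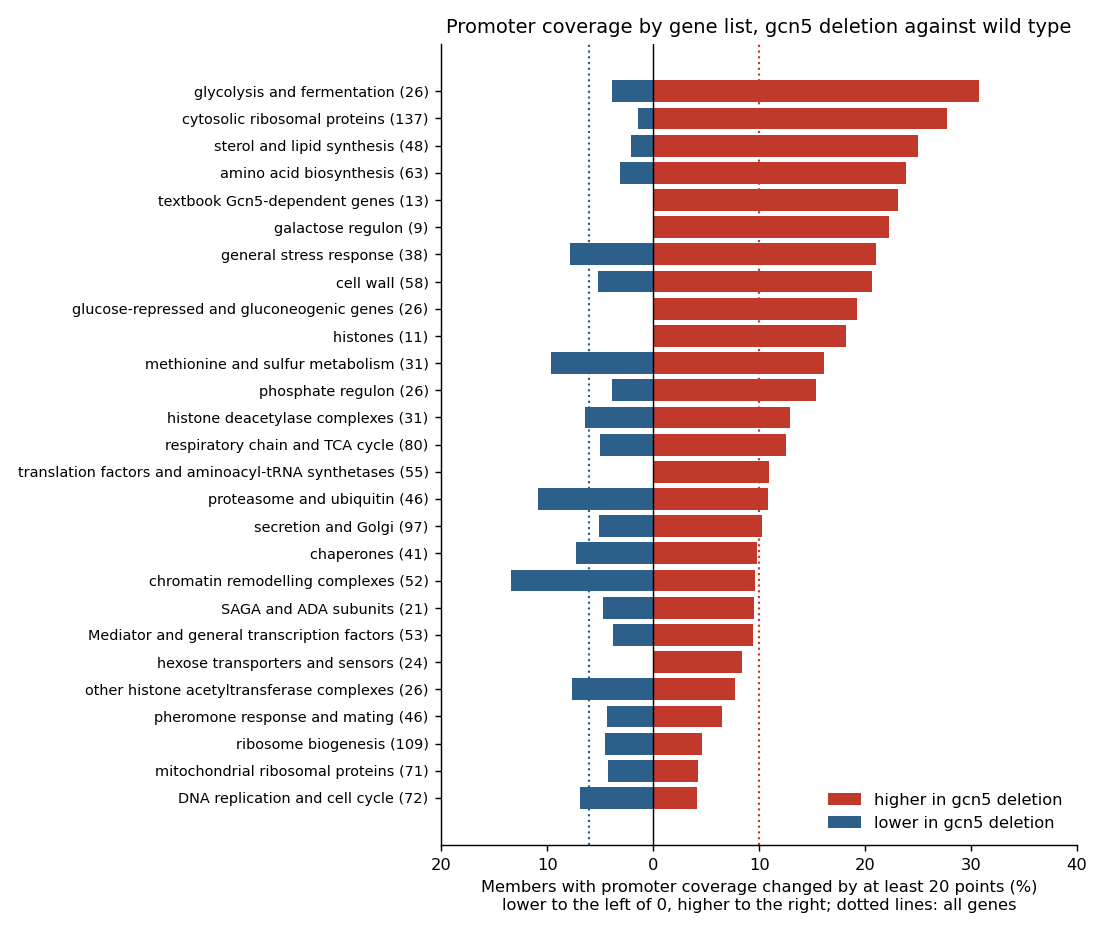
Percent of the members of each gene list (number of genes in parentheses) whose promoter coverage was higher (red, right of 0) or lower (blue, left of 0) by at least 20 points in the gcn5 deletion against wild type; dotted lines give all 5998 genes, 9.97% higher and 6.02% lower. Glycolysis, ribosomal protein, sterol and amino acid lists lie furthest to the right, and DNA replication genes have the lowest share of higher promoters. The shares also depend on how many members had a promoter site in either list.

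The remaining lists of nuclear and housekeeping functions are set against the same shares of all genes, 9.97% higher and 6.02% lower. DNA replication and cell cycle genes had 3 of 72 higher, 4.17% against 9.97% of all genes, and 5 lower, 6.94% against 6.02%. Of the 27 with a wild-type site 7 lost it, against 14% of all genes with one. Counts of this list changed with the processing, to 3 higher and 1 lower with 1000 bp windows and to 1 and 1 with the better-scored 50% of sites. They were 2 higher and 7 lower with 250 bp windows and 4 and 8 with every site set to 250 bp. ORC1, of the origin recognition complex, was at 0% in the gcn5 deletion and 42% in wild type, MCM7, of the replicative helicase, at 0% and 38.4%, and MCM5 at 0% and 27.6%, while RNR1, of ribonucleotide reductase, was at 43.2% and 0%. Proteasome and ubiquitin genes had 5 of 46 higher and 5 lower, 10.9% each, with the polyubiquitin gene UBI4 at 81% in the gcn5 deletion and 0% in wild type and PRE5 at 0% and 45.4%. Chaperone genes had 4 of 41 higher and 3 lower. SSA1, an Hsp70, was at 83.2% in the gcn5 deletion and 0% in wild type, and STI1, an Hsp90 and Hsp70 co-chaperone, at 0% and 34.8%. Secretion and Golgi genes had 10 of 97 higher, 10.3%, and 5 lower, 5.15%; SEC24, a vesicle coat subunit, was at 100% in the gcn5 deletion and 45.4% in wild type, and turned to lower with 250 bp sites. Respiratory genes had 10 of 80 higher, 12.5%, and 4 lower, 5.00%, with NDI1, the inner NADH dehydrogenase, at 93.4% in the gcn5 deletion and 0% in wild type. Pheromone and mating genes had 3 of 46 higher and 2 lower, with TEC1 at 100% in the gcn5 deletion and 36.4% in wild type and the pheromone gene MFA1 at 22.4% and 51.8%.

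Coding spans passed the 20 point threshold less often than promoters, but the thresholds are unlike. The same 20 points stands for more bp in every coding span longer than the 500 bp promoter window. Coverage was higher by at least 20 points at 161 genes, 2.68% of those tested, and lower at 101, 1.68%. Counting any difference, more spans were lower (1260) than higher (929). Sites disappeared from 431 coding spans and appeared in 301, beside 363 promoter windows that lost a site and 405 that gained one. With every site set to 250 bp, 114 were higher and 151 lower, so the direction turned. In all, 61 of the 161 also had a higher promoter and 15 of the 101 also had a lower one. When each span was cut in 3 equal parts, the 5′ part had 6.76% of its bases under sites in the gcn5 deletion and 6.87% in wild type, the middle part 4.24% and 4.26%, and the 3′ part 4.66% and 4.70%. By this measure large changes fell mainly in short genes: 85 of the 161 higher and 59 of the 101 lower spans were among the 1500 shortest genes, at most 711 bp long. Coverage is a percent of the span, so a site of a given width makes a larger change in a shorter gene. The counts by length therefore do not show where sites changed more often.

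The coding spans with the largest gains were SMX3, CWC21 and CDC26, each at 100% in the gcn5 deletion and 0% in wild type. SMX3 encodes a core protein of spliceosomal particles and lay under a site of 2137 bp at chromosome XVI 899904 to 902040, and CDC26 encodes a subunit of the anaphase-promoting complex. HUA1 was at 90.6% in the gcn5 deletion and 0% in wild type, NRE1 at 96.5% and 5.36%, and LSM5, of an RNA-binding ring complex, at 100% and 11.3%. The other four of the highest 10, HHY1, DAT1, MIX17 and GTT3, stood at 88% to 100% in the gcn5 deletion and 15.2% to 26.8% in wild type. All 10 were at 100% in the sba1 deletion.

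The largest coding losses were at TIM10, a chaperone of mitochondrial protein import, at 0% in the gcn5 deletion and 100% in wild type, and at MRPL31, a mitochondrial ribosomal protein gene, at 9.09% and 100%. DPC7 was at 0% in the gcn5 deletion and 80.6% in wild type, DFP3 at 0% and 70.8%, and ATP18, of the mitochondrial ATP synthase, at 0% and 65%. ECM9, the splicing factor gene HSH49, SAS2, LSM2 and CTK2, a subunit of a kinase that phosphorylates RNA polymerase, were covered at 0% to 36.3% in the gcn5 deletion and 52.2% to 86.3% in wild type. In the sba1 deletion DFP3 was at 20.0% and the rest of these 10 at 0%.

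The turnover also varied with the setting of the gene. Genes with at least 600 bp to the upstream neighbour gained a promoter site at 187 of 1022 without one (18.3%, 95% interval 16 to 20.8), while those with under 300 bp did so at 81 of 1128 (7.18%, 5.74 to 8.85). Losses ran the other way, 113 of 1083 (10.4%, 8.68 to 12.4) with at least 600 bp and 103 of 598 (17.2%, 14.3 to 20.5) with under 300 bp. With under 300 bp the 500 bp window extends into the neighbouring gene, so these classes compare windows of unlike content. Divergent genes lost sites at 13.5% (11.8 to 15.3) and tandem genes at 14.7% (12.7 to 17), and they gained sites at 13.9% (12.2 to 15.6) and 10.1% (8.73 to 11.6). By chromosome, loss ranged from 7.77% on chromosome IX to 19.1% on chromosome XV, and gain from 8.02% on chromosome XVI to 18.7% on chromosome VI. Within 25 kb of a chromosome end, 32 of 265 genes without a wild-type site gained one, 12.1% (8.41 to 16.6), near the 11.9% of all genes. Of the 51 with a wild-type site 9 lost it, 17.65% (8.4 to 30.9), against 14% of all genes with one. Promoter coverage was higher at 31 of these 316 genes and lower at 9, against 598 and 361 of all 5998. These shares share sites between neighbouring genes, and no difference among them was tested.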

How the data were processed

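DNase-seq site lists of the gcn5 deletion and wild-type strains were used, with that of the sba1 deletion quoted for single genes. Groups follow the genotype labels. Per the submitters' processing notes, reads were handled with Bowtie 0.12.7 on sacCer3. The sources used here do not give how sites were called, at which threshold or from how many reads. The authors deposited 1 headerless list per sample, with site start and end and a score of unstated scale, which was used only to rank or filter within a list. The site on the mitochondrial chromosome was dropped. Genes came from RefSeq R64, with strand read from systematic names; 1310 of 1312 names in 27 gene lists matched.

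Coverage is the percent of a window under sites. No test was run, since each strain has 1 library. The members, lists and rules were chosen with earlier results of these data known. Named were the 10 genes with the largest change in each class, the Gcn5-dependent genes and the largest gain and loss of each list; other list members were chosen after their values were seen. The code was tested on simulated data. Alternatives were fewer or merged sites, sites of 250 bp, other windows and thresholds. Promoter sequences were not used here. Computation used pandas 2.3.3, numpy 2.4.6 and scipy 1.17.1 in Python 3.11.15, and figures matplotlib 3.10.9.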

Additional observations from a re-analysis of the deposited data

Results flagged for a closer look

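With 1 library a strain none of these differences was tested, and both deletion strains are set against the same wild-type list. At RVB2 promoter coverage was 43.8 points higher in the gcn5 deletion than in wild type, while in the sba1 deletion it was 40.6 points lower than in wild type. At CWP2, a cell wall mannoprotein gene, coding coverage fell by 20.8 points in the gcn5 deletion relative to wild type and was 71.7 points higher in the sba1 deletion. Outside the comparison, the sba1 deletion list covered 29.4% of the GCN5 coding span and 100% of the PHO84 promoter window, which were at 0% in the gcn5 deletion and in wild type.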

How the results depend on the processing

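Every difference rests on 1 library a strain, and unknown depth limits what a missing site means. No paired analysis was possible because each strain has 1 library. The counts of lost and gained promoter sites stayed within 1.5 times the reported ones under all 10 alternatives run on them, at 266 to 445 lost and 320 to 440 gained. Merging sites within 150 bp left both counts unchanged, at 363 and 405, as it had to. It fills only gaps shorter than the 500 bp window, so it cannot change whether a window touches a site. These are totals, and whether the same genes were called in each alternative was not compared. Coverage was higher in the gcn5 deletion at 62.4% of changed promoters and 61.5% of changed coding spans, but at 50.2% and 43% with every site set to 250 bp. It was 70.9% for promoter windows of 1000 bp, where 181 were lower. At a threshold of 10 points 889 promoters were higher and 676 lower and 301 coding spans higher and 282 lower; at 50 points these were 148, 51, 36 and 10. With 250 bp sites, changes of named genes turned round at HSK3 (38.6 points), YCP4 (21.8), CLA4 (37.0), GCR1 (39.0), INO1 (-38.2) and SEC24 (-53.8) in promoters, and at MIX17 (-14.2), HSH49 (8.26), LSM2 (3.61), RSM7 (-30.4), IDP2 (11.8) and FUS3 (-16.1) in coding spans. APL4 turned with the better-scored 50% of sites (39.0) and at 1000 bp (1.50). The cause of each was not tested. Of 147 values of named genes, 58 kept their side of 20 points in every alternative run on them.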
